A study of Homo sapiens with 6 samples.

Results

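Metallothioneins are short, cysteine-rich proteins that hold zinc, copper and other metals, and 8 of their genes were examined together with MTF1 and SLC30A1. The 10 genes were taken by exact gene name (MT1A, MT1E, MT1F, MT1G, MT1H, MT1M, MT1X, MT2A, MTF1 and SLC30A1) from a table of 58174 genes. By its title, the series concerns the microRNA miR-27a-3p and the response of hepatocellular carcinoma to cisplatin. RNA was sequenced from 3 samples of cells given miR-27a-3p mimics, synthetic RNAs that imitate the mature microRNA, and from 3 samples transfected with a negative control (NC), a control oligonucleotide whose sequence the labels do not give. All 6 samples carry the label Huh-7, an established human hepatocellular carcinoma line, were transfected with a lipid reagent and were taken 48 h later. The labels name no metal or cisplatin treatment. Nor do they state that replicates were grown as separate cultures, and p-values then cover only the spread among these 6 samples, part or all of which may be technical.

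MTF1 is the zinc finger transcription factor that senses free zinc in the cytosol, binds metal response elements in promoters and switches on the metallothionein genes. SLC30A1 encodes ZnT1, the carrier that moves zinc out of the cell, and is itself an MTF1 target. Metallothioneins buffer zinc and also bind cadmium and platinum, and in the liver they are strongly induced by metals and glucocorticoids. Several of them, MT1G and MT1M among these, have been reported as silenced in hepatocellular carcinoma.

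Expression is given as FPKM, the fragments assigned to a gene divided by its length and by the total of the library, so levels can be compared between genes per length. FPKM are relative: a gene can be lower because others took a larger share. Low values, multiplied by gene length, piled up at 1 shared step. If that step is 1 fragment, the libraries held 25350000 to 31300000 fragments in mimic samples and 17130000 to 21320000 in NC samples, but only 11.9% to 16.1% of low values were whole multiples of it, so the depth is uncertain. Mitochondrial genes took 14.6%, 24.3% and 38.9% of summed FPKM in mimic samples 1, 2 and 3, against 16.9%, 18.4% and 32.8% in NC samples 1, 2 and 3. Over the 14439 genes whose mean reached 1 FPKM, which were the ones tested, the median log2 fold change of mimic against NC was -0.29 on the deposited scale, 0.01 under median-of-ratios scaling, which divides each library by its median ratio to the average library, and 0.03 after quantile normalization, which gives all libraries 1 distribution.

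The hepatocyte markers were nearly absent, which goes against the label. ALB, APOA1, APOB, TTR, FGB and AFP, the secreted proteins by which hepatocyte-like cells are known, were listed at no more than 0.0407 FPKM in any sample, with APOB and TTR at 0 in all 6. SERPINA1 reached 0.276 FPKM at most in mimic samples and 1.49 in NC samples, and the liver transcription factor gene HNF4A lay between 0.757 and 0.98 in mimic samples and between 0.129 and 0.246 in NC samples. The summed level of the 8 hepatocyte markers was 0.866 to 1.27 FPKM in mimic samples and 0.848 to 1.78 FPKM in NC samples. Of 6 fibroblast markers 1 was tested, COL1A1, and the list summed to 7.73 to 10.5 FPKM in mimic samples and 17.7 to 18.3 in NC samples, with COL1A2 and DCN at or near 0. Of 6 leukocyte and blood markers 1 was tested, CD68, and the list summed to 11.3 to 19.4 FPKM in mimic samples and 8.67 to 10.6 in NC samples, with PTPRC, LYZ and CD3E at or near 0 and HBB at 0. The 4 endothelial markers summed to 0.512 to 0.823 FPKM in mimic samples and 1.42 to 2.91 in NC samples, with KDR at 0. COL1A1 fell (log2 fold change -1.09, limma adjusted p = 0.000606) and CD68 rose (0.91, adjusted p = 0.00938). Other markers of the same lists, all below the filter, lay the other way without overlap: PDGFRB averaged 0.95 FPKM in mimic samples and 0.523 in NC samples, LUM 0.101 in mimic samples and 0.0288 in NC samples, and CD14 0.404 in mimic samples and 1.27 in NC samples. The part of these markers in the results was not tested. What follows describes the cells labelled Huh-7, whatever their origin.

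The sequence of the transfected microRNA sets which transcripts a mimic could pair with, and is shown with its seed, bases 2 to 8, in capitals.
hsa-miR-27a-3p: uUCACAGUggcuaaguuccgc
RefSeq places this mature sequence on the minus strand at chr19:13836447-13836467 (GRCh38.p14). A match to the seed was sought in the longest annotated 3' untranslated region of each gene in GENCODE 29. Of the 10 genes, MT1F, MT1H, MTF1 and SLC30A1 held 1 match each, and MT2A, MT1X, MT1E, MT1A, MT1G and MT1M held none. Over all 19469 genes with such a region, 28.5% held a match, a share not adjusted for length. The regions were 137 to 394 bases long in the 8 metallothionein genes, 3820 in SLC30A1 and 5569 in MTF1. All 4 were of the same class, CTGTGAA, in which a match to the first 6 bases of the seed is followed by an A, and no longer match was found. The sites are shown with the matching bases in capitals.
MT1F site: cattccttttcCTGTGAAatatgtgagtga
MT1H site: ttcctttttttCTGTGAAatatgtgaataa
MTF1 site: gttcccttttcCTGTGAActctttctagtc
SLC30A1 site: agaagagaaagCTGTGAAttgtactgtatc
A match is a description and not evidence that the site is used.

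MT2A, the most widely expressed metallothionein gene, carried nearly all of the family's RNA and fell in mimic samples. It lies on the plus strand of chromosome 16 at 56608199 to 56609497 (hg38). MT2A was at 133.0, 134.6 and 152.1 FPKM in mimic samples 1, 2 and 3, against 358.9, 365.6 and 355.8 FPKM in NC samples 1, 2 and 3. Every mimic sample lay far below every NC sample, and the spread within each group was small beside the gap, with means of 139.9 ± 10.6 and 360.1 ± 4.97 FPKM (SD, n = 3 each). The log2 fold change was -1.36 (SE 0.13, 95% interval -1.67 to -1.06), a level 2.57-fold lower in mimic samples (limma, adjusted p = 0.00014). As these are bulk samples, fewer cells that express the gene and less of its RNA per cell cannot be told apart. The call was kept under all 16 alternatives, from -1.04 after median-of-ratios scaling to -1.45 after quantile normalization. Among all tested genes, 9.72% had a log2 fold change as low or lower. MT2A ranked 480, 395 and 320 among all genes in mimic samples 1, 2 and 3, and 132, 133 and 110 in NC samples 1, 2 and 3.

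MT1X, an MT1 isoform at the far end of the same cluster (plus strand, 56682424 to 56684196), was the only other metallothionein gene above the filter of 1 FPKM. Its level was 10.6, 13.5 and 13.4 FPKM in mimic samples 1, 2 and 3, against 19.1, 14.4 and 19.0 FPKM in NC samples 1, 2 and 3. The groups did not overlap, but NC sample 2 lay close to mimic samples 2 and 3. On the deposited scale MT1X fell (log2 fold change -0.47, SE 0.16, limma adjusted p = 0.0414), which made 2 of the 2 tested metallothionein genes lower, where 39.6% of all tested genes were. Of the 10 genes, 4 passed the filter, 2 were lower, none was higher, and over all tested genes 51.6% were called in either direction. After median-of-ratios scaling MT2A alone was called, where 54.3% of all genes were called in either direction. The MT1X call was lost after median-of-ratios scaling (-0.15, adjusted p = 0.495), after quantile normalization (-0.26, adjusted p = 0.255) and when mitochondrial genes were kept out of the total (-0.44, adjusted p = 0.0816). It was also lost on leaving out any single sample other than NC sample 2, with adjusted p from 0.054 to 0.136, and was kept without NC sample 2 (-0.60, adjusted p = 0.0262). The 95% interval was -0.84 to -0.09 on the deposited scale and -0.57 to 0.26 under median-of-ratios scaling, so relative to the bulk of genes MT1X was not called.

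**Figure D1:**
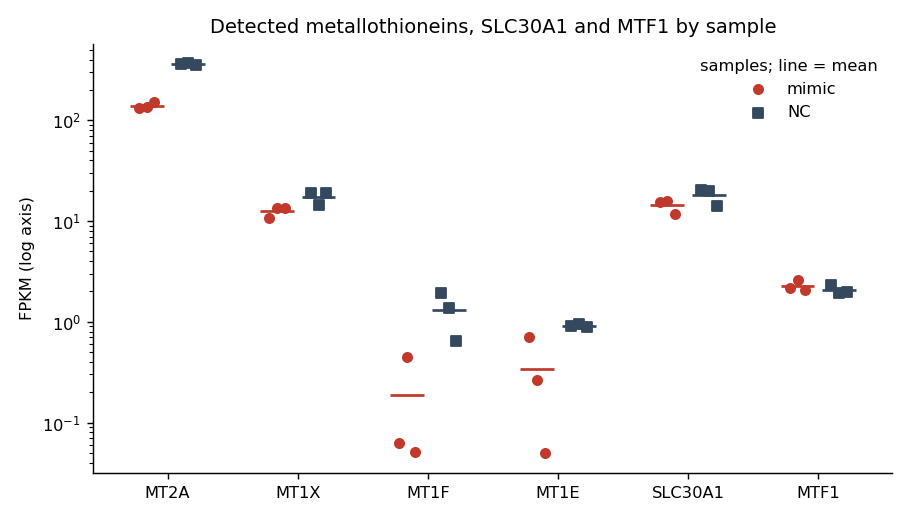
FPKM of the 6 genes with values above 0, by sample, on a log axis; circles are mimic samples, squares NC samples and lines group means. MT2A lies between 133.0 and 152.1 FPKM in mimic samples and between 355.8 and 365.6 in NC samples, while MTF1 and SLC30A1 overlap between the groups.

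MT1E and MT1F, further MT1 isoforms that bind the same metals, were barely detected. MT1E (56625475 to 56627112, plus strand) was at 0.704, 0.265 and 0.0494 FPKM in mimic samples 1, 2 and 3, against 0.9, 0.962 and 0.892 FPKM in NC samples. MT1F (56657694 to 56660698, plus strand) was at 0.0624, 0.448 and 0.0506 FPKM in mimic samples, against 1.95, 1.37 and 0.638 FPKM in NC samples. In both genes every mimic sample lay below every NC sample, as in MT2A and MT1X. All 4 detected metallothionein genes therefore had groups that did not overlap, with the mimic samples lower, a pattern found in 44.3% of tested genes, beside 16.2% with the mimic samples higher and 60.5% in either direction. MT1E and MT1F are not among the tested genes behind those shares. Neither MT1E nor MT1F passed the filter on low values, so neither has a test in the fit. With no filter, MT1F was called (log2 fold change -1.38, SE 0.34, limma adjusted p = 0.027) and MT1E was not (-0.83, SE 0.28, adjusted p = 0.072), on a scale where the added constant of 0.5 FPKM weighs heavily at such levels.

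MT1A, MT1G, MT1H and MT1M were listed at 0 in all 6 samples. They occupy 56638666 to 56640087, 56666731 to 56668065 (minus strand), 56669814 to 56671129 and 56632233 to 56633986 on chromosome 16, interspersed with the detected genes. Of 11 other family genes and pseudogenes, 6 were likewise listed at 0 throughout, MT1B and the pseudogenes MT1L and MT1JP among them. MT3, the isoform known from brain, was listed at 0.0229 FPKM in mimic sample 3 and at 0 elsewhere. MT4, known from squamous epithelium, was listed at 0 in all mimic samples and at 0.784, 0.706 and 0.2 FPKM in NC samples 1, 2 and 3. The pseudogene MT1DP, the only one of the 11 above the filter, was at 1.28, 0.594 and 2.22 FPKM in mimic samples and 1.26, 2.12 and 2.28 in NC samples, which overlap (log2 fold change -0.43, limma adjusted p = 0.317).

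Metallothionein genes are near copies of each other, so the assignment of reads among them is uncertain. The coding sequences of MT2A and MT1X are both 186 bases long and are shown 5' to 3' from GENCODE 29 transcripts, with the 14 bases at which they differ in capitals.
MT2A coding sequence: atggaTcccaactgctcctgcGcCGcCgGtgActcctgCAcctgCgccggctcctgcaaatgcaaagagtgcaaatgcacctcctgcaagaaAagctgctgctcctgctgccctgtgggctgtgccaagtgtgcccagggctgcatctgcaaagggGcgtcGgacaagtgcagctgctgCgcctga
MT1X coding sequence: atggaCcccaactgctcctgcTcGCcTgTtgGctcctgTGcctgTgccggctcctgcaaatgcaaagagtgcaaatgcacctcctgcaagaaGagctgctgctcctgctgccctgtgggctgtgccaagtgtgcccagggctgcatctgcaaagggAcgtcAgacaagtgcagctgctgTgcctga
The identity of the pair was 92.5%. MT2A was closer still to MT1G, which was listed at 0, with 95.2% identity and 9 differing bases. Processed pseudogenes, copies of spliced transcripts elsewhere in the genome, also held values. MT1XP1 on chromosome 1 was at 0.0787, 0 and 0.339 FPKM in mimic samples 1, 2 and 3, against 0.64, 1.06 and 0.568 in NC samples. MT2P1 on chromosome 4 was listed at 0 in all mimic samples and at 0.103, 0.217 and 0.156 in NC samples. MT1P1 and MT1P3 were chosen after their values were seen. MT1P1 was at 0.00587, 0.0928 and 0.132 FPKM in mimic samples, against 0.56, 0.229 and 0.195 in NC samples. MT1P3 was listed at 0 in all mimic samples and at 0.321, 0.102 and 0.215 in NC samples. Among tested genes, which do not include these pseudogenes, 44.3% had every mimic sample below every NC sample. No value of these 4 pseudogenes exceeded 1.06 FPKM. Whether reads of MT2A or MT1X were assigned to them was not tested.

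The summed level of the 8 metallothionein genes depends less on how reads were divided among them. The sum was 144.4, 148.8 and 165.6 FPKM in mimic samples 1, 2 and 3, against 380.8, 382.3 and 376.3 FPKM in NC samples. The mean was 2.48-fold lower in mimic samples. MT2A made up 91.5% ± 0.89 of the sum in mimic samples and 94.8% ± 0.72 in NC samples (SD, n = 3 each), and MT1X 8.16% ± 0.85 and 4.61% ± 0.72. The share of MT1X was thus higher in every mimic sample than in any NC sample.

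Ratios within a sample do not change when a library is rescaled by 1 factor. They were computed for all 6 pairs of the 4 tested genes, a choice made after the values were seen. MT2A was 12.5, 9.99 and 11.4 times as high as MT1X in mimic samples 1, 2 and 3, against 18.8, 25.3 and 18.8 times in NC samples. The groups did not overlap, and the mean log2 ratio differed by -0.88 (3.49 ± 0.16 in mimic samples and 4.38 ± 0.25 in NC samples, SD, n = 3 each; exact two-sided permutation p = 0.1, the smallest that 3 against 3 samples allow, and 0.15 adjusted over the 6 ratios). MT2A over SLC30A1 was 8.64, 8.52 and 12.8 in mimic samples, against 17.6, 18.3 and 25.4 in NC samples, again without overlap (log2 difference -1.04). MT1X over SLC30A1 was 0.691, 0.853 and 1.13 in mimic samples, against 0.938, 0.722 and 1.35 in NC samples, and the groups overlapped (log2 difference -0.15, exact p = 0.6). Relative to MTF1, MT2A stood at 61.4, 51.9 and 74.3 in mimic samples, against 155.0, 189.2 and 178.8 in NC samples (log2 difference -1.49), and MT1X at 4.91, 5.2 and 6.52, against 8.24, 7.47 and 9.53 in NC samples (-0.61). Neither of these ratios overlapped between groups, and each had an exact p of 0.1. SLC30A1 over MTF1 overlapped (log2 difference -0.45, exact p = 0.2, adjusted 0.24).

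**Figure D2:**
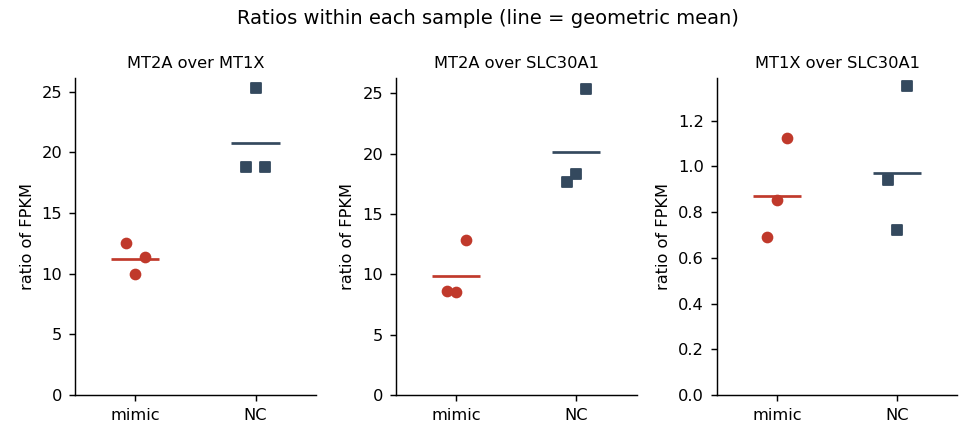
Ratio of FPKM of 2 genes within each sample, on linear axes from 0; circles are mimic samples, squares NC samples and lines geometric means. MT2A over MT1X lies between 9.99 and 12.5 in mimic samples and between 18.8 and 25.3 in NC samples, while MT1X over SLC30A1 overlaps.

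The regulator MTF1, on the minus strand of chromosome 1 at 37809567 to 37859620, was expressed at a low level in both groups. It was at 2.17, 2.59 and 2.05 FPKM in mimic samples 1, 2 and 3, against 2.31, 1.93 and 1.99 FPKM in NC samples. The groups overlapped, with means of 2.27 ± 0.29 and 2.08 ± 0.21 FPKM (SD, n = 3 each). The log2 fold change was 0.10 (SE 0.15, 95% interval -0.25 to 0.45, limma adjusted p = 0.609). The result depended on the scale: MTF1 was not called after median-of-ratios scaling (0.36, adjusted p = 0.0503) and was called higher after quantile normalization (0.76, adjusted p = 0.00273), where 24.9% of all genes were higher and 22.8% lower. On none of these scales was it lower. Transcript levels of MTF1 do not measure its activity, which zinc sets at the protein.

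SLC30A1, the zinc exporter gene and MTF1 target (minus strand of chromosome 1, 211571568 to 211578742), was at 15.4, 15.8 and 11.9 FPKM in mimic samples 1, 2 and 3. It was at 20.3, 20.0 and 14.0 FPKM in NC samples 1, 2 and 3. Sample 3 was the lowest of both groups, and NC sample 3 lay below mimic samples 1 and 2, so the groups overlapped. The log2 fold change was -0.32 (SE 0.19, 95% interval -0.75 to 0.11, limma adjusted p = 0.186), close to the median of all genes. It was -0.00 after median-of-ratios scaling (adjusted p = 0.989). Sample 3 of each group also had the largest mitochondrial share, as given above. Computed without mitochondrial genes in the total, the log2 fold change was -0.30 (adjusted p = 0.129).

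By level, MT2A stood far above all others in both groups, and MT1A, MT1G, MT1H and MT1M, listed at 0, stood below all others. SLC30A1 and MT1X came next and did not differ beyond their spread, at 14.4 ± 2.17 and 12.5 ± 1.60 FPKM in mimic samples and 18.1 ± 3.55 and 17.5 ± 2.65 in NC samples (SD, n = 3 each). MTF1 followed. Of the 6 detected genes MT1F and MT1E had the lowest means, at 0.187 ± 0.226 and 0.339 ± 0.333 FPKM in mimic samples, which overlap, and 1.32 ± 0.66 and 0.918 ± 0.038 in NC samples, which also overlap. In NC samples the highest MT1F value lay above the lowest MTF1 value.

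**Figure D3:**
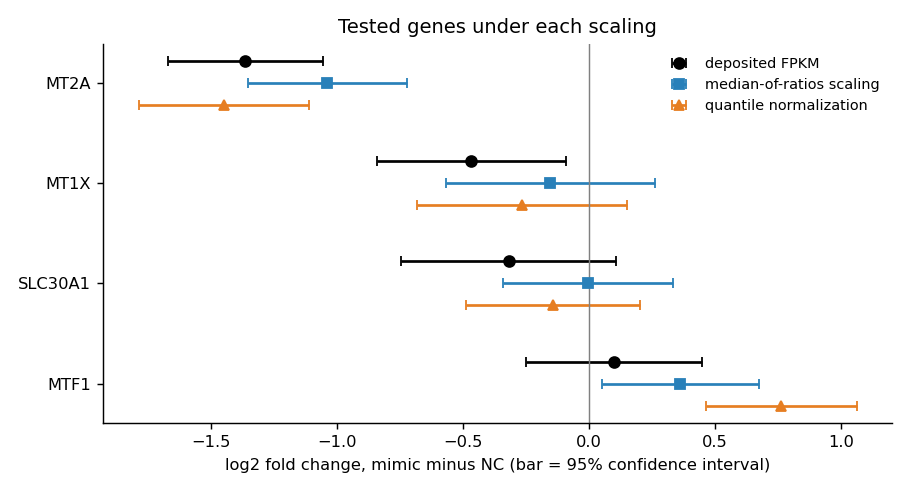
Log2 fold change of mimic minus NC with its 95% confidence interval for the 4 tested genes, from limma on deposited FPKM, after median-of-ratios scaling and after quantile normalization. Only MT2A stays below 0 with its whole interval on all 3 scales, and MTF1 lies at 0.10, 0.36 and 0.76 on them.

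The promoters of these genes were compared for the word that MTF1 binds, the metal response element. Its core was searched as TGCACNC or TGCGCNC on both strands, in windows from 250 bases before to 50 bases after the RefSeq start site. RefSeq windows (GRCh38.p14) were matched for 5 of the 10 genes, MT2A, MT1X, MT1H, SLC30A1 and MTF1. Those of MT2A at chr16:56608334-56608633 and MT1X at chr16:56682220-56682519 are shown as the promoters of the expressed metallothionein genes, that of MT1H at chr16:56669564-56669863 as one of a gene listed at 0, and that of SLC30A1 at chr1:211579112-211579411 (minus strand) as the other MTF1 target. Capitals mark the words, read on the strand of the gene.
MT2A promoter: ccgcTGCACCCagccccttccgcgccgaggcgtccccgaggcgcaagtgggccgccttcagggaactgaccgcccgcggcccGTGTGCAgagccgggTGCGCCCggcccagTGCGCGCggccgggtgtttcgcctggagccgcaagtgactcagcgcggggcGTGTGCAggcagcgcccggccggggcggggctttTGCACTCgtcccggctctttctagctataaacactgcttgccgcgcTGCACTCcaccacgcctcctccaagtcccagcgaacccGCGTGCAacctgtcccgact
MT1X promoter: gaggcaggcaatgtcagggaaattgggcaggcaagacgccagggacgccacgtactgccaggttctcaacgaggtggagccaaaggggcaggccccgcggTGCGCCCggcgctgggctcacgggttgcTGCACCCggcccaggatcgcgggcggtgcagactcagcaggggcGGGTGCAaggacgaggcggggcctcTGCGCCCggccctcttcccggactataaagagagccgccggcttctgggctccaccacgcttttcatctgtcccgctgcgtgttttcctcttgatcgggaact
MT1H promoter: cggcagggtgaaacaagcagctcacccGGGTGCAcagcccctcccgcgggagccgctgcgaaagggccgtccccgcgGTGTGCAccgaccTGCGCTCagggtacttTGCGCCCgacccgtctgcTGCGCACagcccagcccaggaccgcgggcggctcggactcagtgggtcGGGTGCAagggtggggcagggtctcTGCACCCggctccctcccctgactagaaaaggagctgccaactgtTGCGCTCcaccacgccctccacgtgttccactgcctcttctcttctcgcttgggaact
SLC30A1 promoter: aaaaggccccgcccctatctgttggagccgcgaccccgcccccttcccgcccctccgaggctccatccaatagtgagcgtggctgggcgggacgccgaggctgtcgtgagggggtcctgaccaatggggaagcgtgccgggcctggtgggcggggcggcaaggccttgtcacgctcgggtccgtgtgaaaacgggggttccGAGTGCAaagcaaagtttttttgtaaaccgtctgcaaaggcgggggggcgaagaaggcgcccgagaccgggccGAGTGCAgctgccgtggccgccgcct
MT2A and MT1H held 8 words each, none overlapping, a number reached by 6 of 27305 promoter windows of this length (0.022%). MT1X held 4, as did or exceeded 0.593% of windows, and SLC30A1 held 2, as did or exceeded 8.59%. MTF1 held none, while 29.3% of all windows held at least 1. These shares are not adjusted for the content of G and C bases, which was 67% to 72% in the 5 windows. MT1H, with as many words as MT2A, was listed at 0 in all samples, a value that rests on the uncertain assignment of reads. MT2A and MT1X had log2 fold changes of -1.36 and -0.47. Whether the words bear on level or fold change was not tested. The start site that RefSeq gives for SLC30A1 lies outside the gene model of the deposited table. A word is not a bound site, and binding was not measured here.

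**Figure D4:**
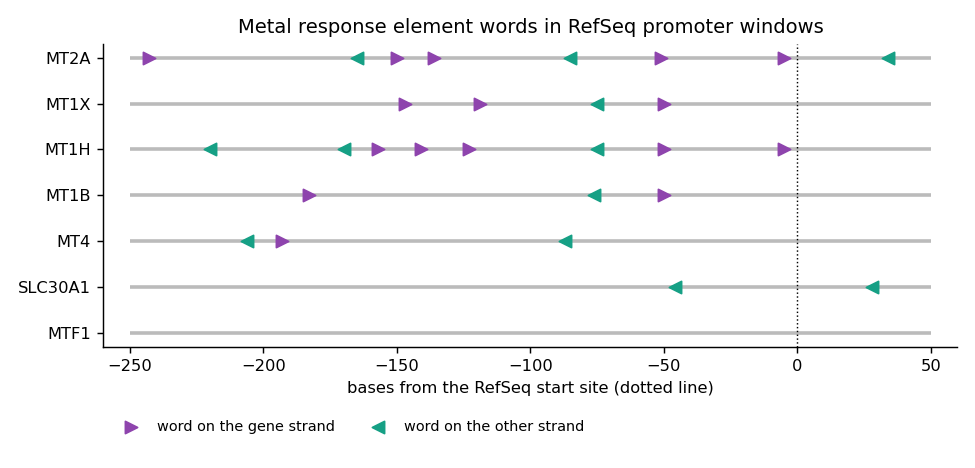
Positions of metal response element words in RefSeq promoter windows, in bases from the start site (dotted line); arrows pointing right are on the strand of the gene and arrows pointing left on the other. MT2A and MT1H hold 8 words each, MT1X 4, SLC30A1 2 and MTF1 none, with MT1B and MT4 shown for comparison.

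Reported MTF1 targets outside the family, largely known from mouse, included no tested gene that was called lower. Of 9 in the list, 7 were tested, 1 was called higher and none lower, and the median log2 fold change was 0.03, against -0.29 over all genes. With median-of-ratios scaling 4 of the 7 were higher, with quantile normalization 2, and none was lower. Over all genes, 12% were called higher and 39.6% lower as deposited. The shares were 26.9% higher and 27.4% lower with median-of-ratios scaling, and 24.9% higher and 22.8% lower with quantile normalization. Of the tested genes, SLC30A1 (log2 fold change -0.32) and CSRP1 (-0.25) had lower means in mimic samples on the deposited scale without being called. CSRP1 is named after its values were seen. NDRG1, a stress and hypoxia response gene, was at 196.4, 167.4 and 140.0 FPKM in mimic samples, against 130.4, 96.9 and 97.0 in NC samples (log2 fold change 0.63, SE 0.18, limma adjusted p = 0.0202). SLC39A10, a zinc importer gene that MTF1 represses in mouse, was at 12.5, 14.6 and 11.3 FPKM in mimic samples and 11.6, 11.3 and 9.48 in NC samples (0.24, limma adjusted p = 0.214), and was called higher under median-of-ratios scaling (0.55, adjusted p = 0.00556). SLC30A1, described above, had the second smallest p of the list. PGF, a placental growth factor gene named after its values were seen, stayed below the filter at 0.592, 0.274 and 0.458 FPKM in mimic samples and 1.32, 1.06 and 1.3 in NC samples, which do not overlap.

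Other zinc carriers showed no common direction on the deposited scale. Of 5 tested zinc exporter genes of the SLC30A family besides SLC30A1, 1 was lower and none higher, while with median-of-ratios scaling none was lower and 1 higher, and with quantile normalization none was called. Over all tested genes 39.6% were lower and 12% higher as deposited, and 27.4% lower and 26.9% higher under median-of-ratios scaling. SLC30A7, which loads zinc into the secretory pathway, was at 3.9, 5.38 and 3.98 FPKM in mimic samples, against 7.71, 6.7 and 7.67 in NC samples (log2 fold change -0.69, SE 0.16, limma adjusted p = 0.00713). After median-of-ratios scaling SLC30A7 was not called (-0.39, adjusted p = 0.0575). SLC30A9 (-0.35, adjusted p = 0.0518) and SLC30A3 (-0.29, adjusted p = 0.117) were not called on any of the 3 scales. Among 11 tested zinc importer genes of the SLC39A family, 3 were higher and 1 lower, while with median-of-ratios scaling 8 were higher and with quantile normalization 6, and none was lower. With quantile normalization 24.9% of all tested genes were higher and 22.8% lower. SLC39A1, a zinc carrier of the plasma membrane, was at 120.4, 101.7 and 101.2 FPKM in mimic samples, against 20.3, 6.53 and 18.2 in NC samples (log2 fold change 2.95, SE 0.38, limma adjusted p = 0.00065). SLC39A7, which releases zinc from the endoplasmic reticulum, rose (0.93, adjusted p = 0.00759), and SLC39A13 fell on the deposited scale alone (-0.70, adjusted p = 0.0118).

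Stress genes that cadmium, zinc overload and protein damage induce were mostly higher in mimic samples. Of 9 in the list, 8 were tested, 6 were higher and none lower, with a median log2 fold change of 0.82. With median-of-ratios scaling 7 were higher, with quantile normalization 6, and none was lower. The shares of all tested genes called higher were 12% as deposited, 26.9% with median-of-ratios scaling and 24.9% with quantile normalization. The shares called lower were 39.6%, 27.4% and 22.8% on the same scales. HMOX1, which encodes the heme-degrading enzyme heme oxygenase, was at 27.7, 22.3 and 17.8 FPKM in mimic samples 1, 2 and 3, against 9.18, 10.3 and 10.5 in NC samples (log2 fold change 1.12, SE 0.17, limma adjusted p = 0.00108). The co-chaperone gene BAG3 was at 30.9, 38.3 and 35.7 FPKM in mimic samples, against 16.7, 19.3 and 16.9 in NC samples (0.97, SE 0.14, adjusted p = 0.000694). The heat shock genes HSPA1A (1.11) and HSPA1B (1.24) also rose and are near-identical copies, so their division is uncertain. HMOX1 was the gene with the fourth smallest p in this list and is named after its values were seen. The heat shock gene HSPA6, also named after its values were seen, stayed below the filter and lay the other way without overlap. It was at 0.242, 0.203 and 0.123 FPKM in mimic samples and 0.456, 0.621 and 0.354 in NC samples.

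Glucocorticoids induce MT2A, and a list of glucocorticoid-induced genes was examined. Of 9 in the list, 6 were tested, 4 were lower and none higher. With median-of-ratios scaling or quantile normalization 4 were lower and 1 higher. Over all genes, 39.6% were lower and 12% higher on the deposited scale. The shares were 27.4% lower and 26.9% higher under median-of-ratios scaling, and 22.8% lower and 24.9% higher with quantile normalization. DUSP1, a phosphatase that ends MAP kinase signals, was at 87.6, 77.1 and 67.0 FPKM in mimic samples, against 585.7, 637.2 and 574.2 in NC samples (log2 fold change -2.96, SE 0.15, limma adjusted p = 1.37e-05). PER1, a clock gene, fell (-2.53, adjusted p = 2.13e-05), as did the transcription factor gene KLF9 (-1.29, adjusted p = 0.000449). SGK1, named after its values were seen, was the remaining gene called lower (-1.115, limma adjusted p = 0.000742), and was called lower on both other scales. Below the filter, PCK1 and TAT, named after their values were seen, were lower in every mimic sample than in any NC sample. That pattern was found in 44.3% of tested genes, to which neither belongs. The means of PCK1 and TAT were 0.00934 and 0.0129 FPKM in mimic samples, against 0.489 and 0.0547 in NC samples. For TAT the groups nearly met, at 0.0301 FPKM in mimic sample 1 and 0.033 in NC sample 2. ZBTB16, also below the filter, was listed at 0 in every sample. FKBP5 and TSC22D3, which are widely used as readouts of glucocorticoids, were not called, at -0.05 (limma adjusted p = 0.798) and 0.07 (adjusted p = 0.752). TSC22D3 was called higher after median-of-ratios scaling and FKBP5 after quantile normalization, and both are named after their values were seen. Receptor activity was not measured.

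The neighbours of the metallothionein cluster were mixed. Of 7 tested flanking genes on chromosome 16, 2 fell and none rose, with a median log2 fold change of -0.13, against 39.6% lower, 12% higher and a median of -0.29 over all tested genes. On the deposited scale the share of neighbours that fell was thus not above that of all genes. With median-of-ratios scaling 1 of the 7 was lower and 1 higher, and with quantile normalization 2 were lower and 1 higher. Over all genes, 27.4% were lower and 26.9% higher with median-of-ratios scaling. With quantile normalization the shares were 22.8% lower and 24.9% higher. OGFOD1 was called higher under both other scalings. BBS2, a ciliary transport gene that lies next to MT4 (minus strand, 56466836 to 56520283), was at 27.1, 33.6 and 28.1 FPKM in mimic samples, against 73.3, 68.1 and 61.5 in NC samples (log2 fold change -1.18, SE 0.14, limma adjusted p = 0.000317). BBS2 was called lower on both other scales as well (-0.86 with median-of-ratios scaling and -1.19 with quantile normalization). HERPUD1, an endoplasmic reticulum stress gene, also fell (-0.84, limma adjusted p = 0.00615). HERPUD1 was not called after median-of-ratios scaling (-0.51, adjusted p = 0.0658) and was called lower after quantile normalization (-0.88, adjusted p = 0.00986). OGFOD1, whose annotated span overlaps that of BBS2 on the other strand, was not called on the deposited scale (0.25, adjusted p = 0.121), nor was NUP93 on the other side of the cluster (0.05, adjusted p = 0.872). NUP93 was named after its value was seen.

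**Figure D5:**
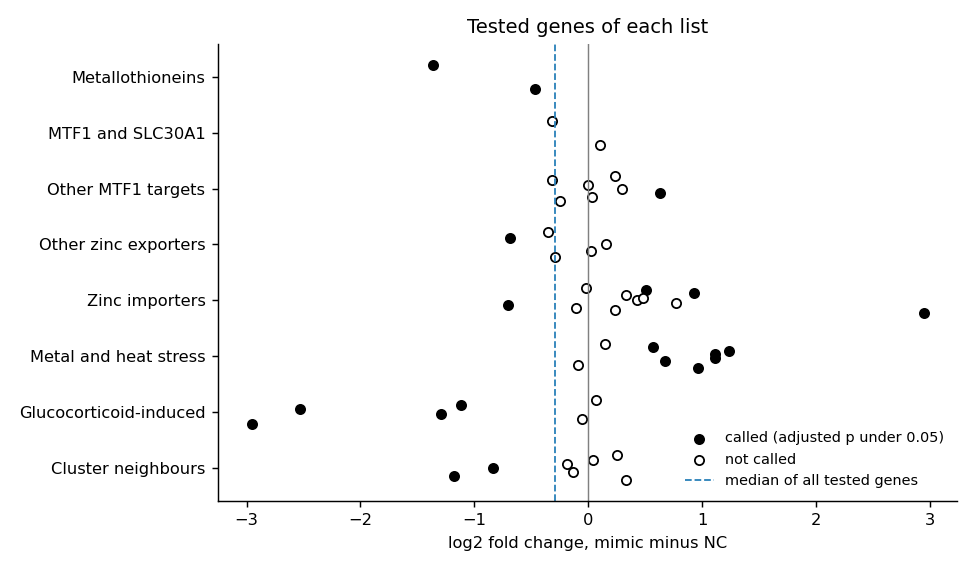
Log2 fold change of mimic minus NC for each tested gene, by list; filled points are called at an adjusted p under 0.05, and the dashed line is the median of all tested genes, -0.29. MT2A at -1.36 stands left of the other MTF1 targets, metal and heat stress genes other than DNAJB1 lie right of 0, and neighbours of the cluster spread on both sides.

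The genes whose profile over the 6 samples was closest to that of MT2A were sought among 8650 protein-coding genes whose mean reached 5 FPKM, by the root-mean-square difference of centred log2 values. They were EME1, a subunit of a DNA junction endonuclease (difference 0.057 on the log2 scale), ZC3H12A, a ribonuclease that destroys cytokine mRNAs (0.071), the efflux transporter gene ABCC3 (0.073), RNF207 (0.074) and ANKHD1 (0.075). EME1 was at 14.9, 15.0 and 15.8 FPKM in mimic samples 1, 2 and 3, against 37.4, 40.2 and 41.2 in NC samples, a log2 fold change of -1.35. The likeness rests on 2 tight groups of 3 samples each, so any gene with a fall of that size and little spread would be close.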

How the data were processed

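The deposited tables hold FPKM per gene and sample, which the authors computed; the submitters' processing notes name FastQC, HISAT2 and hg38. How FPKM were made from alignments, whether strand was used and which annotation served is, in the sources used here, not stated. Each sample's own table held the same values as the table of the series. Reads per gene were not recovered, since 11.9% to 16.1% of low values were whole multiples of the step taken as 1 fragment at a tolerance of 1%, so no count test, counting interval or detection limit is given. Of 58174 identifiers, 57392 had a symbol in the name table and 57836 were in GENCODE 29, whose positions were the same for 56001.

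Groups follow the treatment label. The test was limma-trend (limma 3.58.1, R 4.3.3) with robust moderation on log2(FPKM + 0.5), two-sided, over the 14439 genes that reached a mean of 1 FPKM, with Benjamini-Hochberg adjustment at 0.05 over all of them. Such fold changes understate those of low genes. Ratios were tested by exact permutation (scipy 1.17.1). Genes named by rule are the 10 members, up to 3 genes of smallest p in each list, and the 5 closest to MT2A. Other genes, SGK1, PCK1 and TAT among them, are named outside this rule, many of them after their values were seen. Members and lists were chosen with earlier results of these data known. Promoters and the microRNA are from RefSeq, and transcripts from GENCODE 29.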

Additional observations from a re-analysis of the deposited data

How the results depend on the processing

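MT2A kept its direction and its call under all 16 alternatives (log2 fold change -1.45 to -1.04, adjusted p 0.000138 to 0.00363). The number of metallothionein genes called lower was 2 and none was called higher. It was 1, with MT1X lost, after median-of-ratios scaling, after quantile normalization, when the total excluded mitochondrial genes and when sample 3 was dropped from each group. Leaving out single samples gave 1 to 2. With no filter on low values it was 2, but MT2A and MT1F, with MT1X at adjusted p = 0.0781. MT1X lost its call in 10 of 16 alternatives with its direction kept (-0.60 to -0.15, adjusted p 0.0262 to 0.495). SLC30A1 was called in none (adjusted p 0.0502 to 0.989), and MTF1 only after quantile normalization (0.76, adjusted p = 0.00273; 0.02 to 0.76 over 15 alternatives); it is below the filter of 5 FPKM. Deviations of same-numbered samples correlated at 0.18, -0.05 and 0.22, and not every sample correlated best with its own number, so the numbers were not taken as pairs. With the replicate number as a block, 2 metallothionein genes were lower, SLC30A1 had an adjusted p of 0.0502, and over all genes 2117 were higher and 5994 lower. Over all genes, 1735 were higher and 5718 lower; 3889 were higher and 3953 lower after median-of-ratios scaling, 3592 and 3289 after quantile normalization, 8755 lower with no filter and 2916 lower at a mean of at least 5 FPKM. The cause of these changes was not tested. The number of genes tested also differed under the other filters, at 35796 with no filter and 9456 at a mean of at least 5 FPKM. Fragments per gene were not recovered, so the counting error behind the low values of MT1E and MT1F is unknown.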
